A study of Mus musculus with 38 samples.

Results

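The comparison of 2 dormant IL13+ mouse CD8 T cell clones, sAg1 and sAg3, with the dormant alloreactive CD8 clone CD8bm1 rests on 10 of the 38 arrays of the series. The members were chosen by their labels alone: 3 arrays of dormant sAg1, 3 of dormant sAg3 and 4 of dormant CD8bm1. The 2 IL13+ clones had equal weight, and a gene counted as different only where both clone means lay on the same side of the CD8bm1 mean. The series holds 5 clones in 2 states. All clones carry CD8 and were grown in medium with fetal bovine serum. The IL13+ clones carry the phenotype label CD8IL13+ (CD8γ13 in the design text), and CD8bm1 is described as a conventional CD8 clone that is alloreactive, that is, directed at foreign MHC. Dormant means resting, without stimulus. Activated means 14 h on plates coated with anti-CD3 antibody at 0.5 ug/ml, and the activated arrays of the same 3 clones (4 each) were used where stated. Levels of the IL13-negative clones 8uvmo-2 and 8uvmo-3 (4 dormant arrays each) are given only as side values. Their arrays entered the estimate of spread, which came from all 38 arrays. Mouse strain, antigen and the origin of the clones were not given in the labels used here, and CD8bm1 is a single clone, so alloreactivity and the identity of this 1 clone cannot be told apart.

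CD8 T cells usually kill target cells and secrete interferon gamma, the type 1 programme directed by T-bet and Eomes. A minority makes the type 2 cytokines IL-13 and IL-5, a programme directed by GATA-3 and shared with type 2 helper cells, and IL-13 drives mucus production and fibrosis in barrier tissues. A T cell clone descends from 1 cell and carries 1 antigen receptor; between stimulations it leaves the cell cycle to a varying degree, and its glycolysis follows growth and oxygen supply.

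Markers of the labelled cell type were present in all 3 clones. Median log2 levels of the 8 measured T cell markers were 11.70 to 11.85 on the sAg1 arrays and 12.19 to 12.28 on the sAg3 arrays, against 11.96 to 12.16 on the CD8bm1 arrays, and none of the 8 was called. Cd8a, the alpha chain of the CD8 coreceptor, had log2 levels of 11.04, 11.32 and 11.30 in sAg1 and 12.21, 12.14 and 12.24 in sAg3, against 11.71, 11.54, 11.46 and 11.57 in CD8bm1. Cd8b1, its beta chain, had 12.35, 12.37 and 12.37 in sAg1 and 12.28, 12.23 and 12.31 in sAg3, against 12.67, 12.61, 12.50 and 12.57 in CD8bm1. Neither chain reached the minimum difference, with 0.14 ± 0.06 (SE) for Cd8a and -0.27 ± 0.05 (SE) for Cd8b1 on the log2 scale. Arrays of 1 group correlated across genes at 0.9970 to 0.9974 in sAg1, 0.9963 to 0.9973 in sAg3 and 0.9877 to 0.9958 in CD8bm1. An array of an IL13+ clone against an array of CD8bm1 gave 0.9407 to 0.9665, and sAg1 against sAg3 gave 0.9594 to 0.9621.

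Levels are log2 probe set intensities, and a log2 difference of 1 is a 2-fold difference. A probe set was called at a limma Benjamini-Hochberg adjusted p under 0.05, a log2 difference of at least 1 and both sAg clones on the same side. Of 23410 probe sets with a gene name, 1699 (7.26%) were called, 735 higher in the IL13+ clones (3.14%) and 964 lower (4.12%). On 1467 of the 1699 no sAg array overlapped a CD8bm1 array; over all probe sets 4674 (19.97%) did not overlap. The median difference of all probe sets was 0.01. In 984 of the 1699 each clone also passed on its own, 335 higher and 649 lower. The IL13+ clones also differed from each other: sAg1 differed from sAg3 at 1764 probe sets (7.54%), about as often as sAg3 differed from CD8bm1 (1706, 7.29%), while sAg1 differed from CD8bm1 at 2463 (10.5%), 1159 of them higher (4.95%). No background measure was used here, so the 95th percentile of 1035 olfactory receptor probe sets, 5.92, was taken as near background. In 244 of the higher calls the CD8bm1 mean lay below it, and in 172 of the lower calls both sAg means did; their folds are written as at least the ratio to that level, and their log2 differences rest on levels near background. In 32 calls all 3 group means lay below it. When clone means instead of arrays were the replicates, 56 probe sets were called, 5 higher and 51 lower. The spread in that fit came from the IL13+ pair and the IL13-negative pair of dormant clones, with CD8bm1 as a single value.

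The 12 genes higher in both IL13+ clones by the widest margin included enzymes, chaperones and membrane proteins. B4galnt2, a glycosyltransferase that adds the last sugar of the Sda carbohydrate antigen, had log2 levels of 11.82, 11.66 and 11.92 in sAg1 and 13.08, 13.09 and 13.05 in sAg3, against 5.84, 5.86, 6.05 and 5.68 in CD8bm1. It was at or near background in CD8bm1 and well above it on all 6 sAg arrays, a difference of 6.58 ± 0.10 (SE), at least 91.4-fold (adjusted p = 4.48e-33). Clgn, an endoplasmic reticulum chaperone best known from male germ cells, had 10.60, 10.66 and 10.73 in sAg1 and 12.12, 12.03 and 12.09 in sAg3, against 5.25, 5.29, 5.52 and 5.12 in CD8bm1. The difference was 6.08 ± 0.11 (SE), at least 43.7-fold. Dnajb9, a chaperone partner in the same compartment, had 7.78, 7.75 and 7.40 in sAg1 and 10.04, 10.11 and 10.17 in sAg3, against 2.94, 2.66, 2.96 and 3.50 in CD8bm1. It was near background in CD8bm1 and at least 7.74-fold higher, and sAg3 stood above sAg1. Ms4a4b, a four-pass membrane protein of T cells, had 10.94, 11.18 and 10.87 in sAg1 and 10.98, 10.91 and 10.82 in sAg3, against 5.86, 5.53, 5.26 and 5.58 in CD8bm1, at least 32.6-fold higher, with the sAg1 and sAg3 arrays overlapping.

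Gmfg, an actin regulator of blood cells, differed within the measured range. Its levels were 12.71, 12.78 and 12.77 in sAg1 and 12.61, 12.61 and 12.59 in sAg3, against 8.00, 7.92, 7.69 and 7.89 in CD8bm1. The 6 sAg arrays lay close together and 27.9-fold above CD8bm1 on average, a difference of 4.80 ± 0.06 (SE) (adjusted p = 1.92e-34). Acpp, an acid phosphatase that also splits extracellular AMP, had 11.10, 11.19 and 11.11 in sAg1 and 11.98, 11.87 and 11.88 in sAg3, against 6.77, 6.47, 6.45 and 6.74 in CD8bm1. Zfp280d, a zinc finger gene, had 8.92, 8.72 and 8.69 in sAg1 and 8.58, 8.43 and 8.39 in sAg3, against 4.10, 4.12, 4.12 and 4.47 in CD8bm1. Tmem273, a membrane protein gene of little known function, had 10.22, 10.05 and 9.68 in sAg1 and 9.94, 9.98 and 10.37 in sAg3, against 5.89, 5.85, 5.89 and 5.24 in CD8bm1. In none of these genes did the sAg arrays overlap those of CD8bm1. Acpp differed by 4.91 ± 0.12 (SE). Zfp280d and Tmem273 were near background in CD8bm1, and the IL13+ clones were at least 6.49-fold and 17.4-fold higher.

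Neighbouring receptor genes of the gp49 pair stood in the same group. Lilrb4a encodes the inhibitory receptor gp49B and had 11.67, 11.66 and 11.51 in sAg1 and 11.07, 10.91 and 11.22 in sAg3, against 7.31, 6.93, 6.51 and 6.78 in CD8bm1. Lilr4b, encoding its close relative gp49A, had 11.87, 11.87 and 11.81 in sAg1 and 10.82, 10.74 and 11.03 in sAg3, against 6.62, 6.22, 6.09 and 6.24 in CD8bm1. Both were higher on every sAg array, by 4.46 ± 0.15 (SE) and 5.06 ± 0.18 (SE). The sequences of the pair are much alike, so the probe sets may share signal. Sulf2, a sulfatase that trims heparan sulfate outside the cell, had 10.73, 10.74 and 10.82 in sAg1 and 10.35, 10.34 and 10.32 in sAg3, against 6.27, 6.11, 6.27 and 5.97 in CD8bm1. Tnfrsf11b encodes osteoprotegerin, the decoy receptor for RANKL, and had 9.97, 10.05 and 9.91 in sAg1 and 11.51, 11.26 and 11.44 in sAg3, against 6.29, 6.2, 5.86 and 6.10 in CD8bm1. Its ligand gene Tnfsf11 was higher as well, at 9.35, 9.40 and 9.39 in sAg1 and 8.47, 8.32 and 8.59 in sAg3, against 7.78, 8.08, 8.08 and 7.53 in CD8bm1, a smaller difference of 1.05 ± 0.10 (SE) that fell to 0.94 and below the minimum without CD8bm1 replicate 4.

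**Figure D1:**
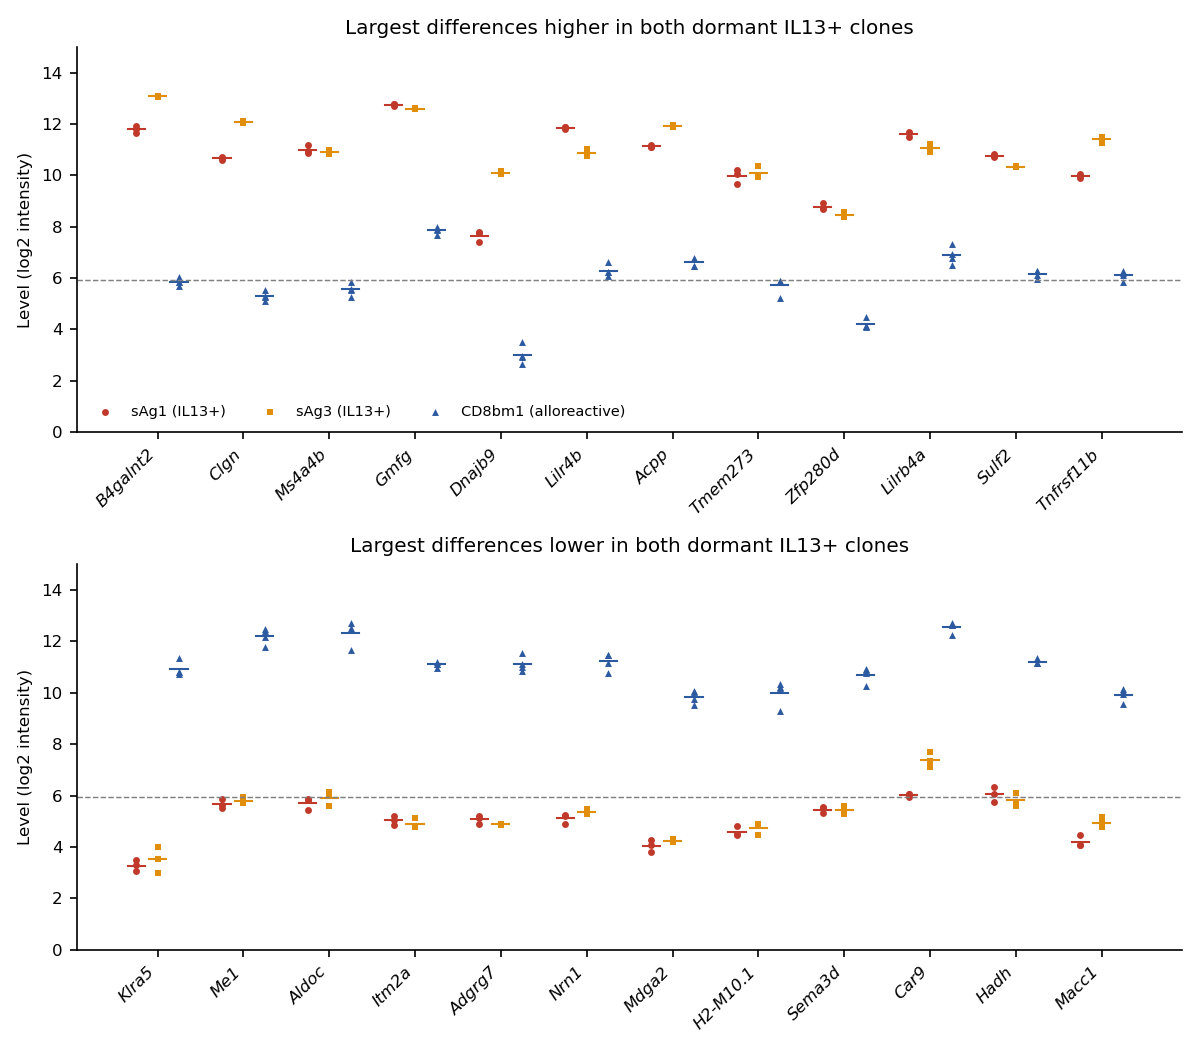
Levels (log2 intensity) of the 12 genes with the widest margin in each direction on every dormant array of sAg1, sAg3 and CD8bm1; horizontal bars are group means and the dashed line is the near-background level of 5.92. In the upper panel all 6 sAg points of each gene lie above its 4 CD8bm1 points, and in the lower one all 6 lie under them.

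Genes lower in both IL13+ clones included a natural killer receptor and metabolic enzymes. Klra5 encodes Ly49E, a lectin-like receptor of natural killer cells, and had log2 levels of 3.47, 3.28 and 3.07 in sAg1 and 3.00, 3.99 and 3.54 in sAg3, against 11.34, 10.81, 10.75 and 10.80 in CD8bm1. It was near background on all 6 sAg arrays, a difference of -7.53 ± 0.19 (SE), at least 32.1-fold lower; the Klra genes are a family of close copies, so the member is uncertain. Me1, the cytosolic malic enzyme that supplies NADPH for lipid synthesis, had 5.64, 5.86 and 5.53 in sAg1 and 5.70, 5.95 and 5.72 in sAg3, against 12.16, 12.41, 12.47 and 11.80 in CD8bm1. It was at least 78.1-fold lower (difference -6.48 ± 0.13 (SE), adjusted p = 6.17e-30). Hadh, an enzyme of mitochondrial fatty acid oxidation, had 6.32, 5.76 and 6.05 in sAg1 and 6.11, 5.76 and 5.61 in sAg3, against 11.18, 11.15, 11.15 and 11.36 in CD8bm1, a difference of -5.28 ± 0.11 (SE).

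Surface and secreted proteins were also among the 12 with the widest margin. Itm2a, a membrane protein induced during T cell selection and activation, had 5.21, 5.05 and 4.87 in sAg1 and 4.78, 5.11 and 4.79 in sAg3, against 11.13, 10.98, 11.13 and 11.19 in CD8bm1. Nrn1 encodes neuritin, a small anchored protein first described in neurons, and had 5.21, 5.26 and 4.89 in sAg1 and 5.31, 5.27 and 5.47 in sAg3, against 11.18, 11.48, 11.46 and 10.76 in CD8bm1. Adgrg7, an adhesion G protein-coupled receptor, had 5.12, 4.89 and 5.20 in sAg1 and 4.89, 4.89 and 4.86 in sAg3, against 10.86, 11.12, 11.54 and 11.01 in CD8bm1. All 3 lay near background on every sAg array and high on every CD8bm1 array, at least 36.4-fold, 39.3-fold and 37-fold lower in the IL13+ clones. Sema3d, a secreted semaphorin, was at least 27.6-fold lower. Mdga2, an anchored adhesion protein of synapses, was at least 15.2-fold lower, and Macc1, a regulator of the receptor tyrosine kinase gene Met, at least 16-fold lower. H2-M10.1, a nonclassical class I MHC gene with close copies, had 4.81, 4.50 and 4.47 in sAg1 and 4.85, 4.46 and 4.89 in sAg3, against 9.31, 10.33, 10.19 and 10.21 in CD8bm1 and was at least 17-fold lower.

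The IL13-negative clones put these levels beside other CD8 clones. B4galnt2 had mean log2 levels of 12.05 in dormant 8uvmo-2 and 11.23 in dormant 8uvmo-3, Gmfg 12.87 and 12.79, and Zfp280d 8.72 and 9.26; these levels are near those of the IL13+ clones. Tmem273 was near background in both, at 5.36 and 5.45, as in CD8bm1. Among the lower genes Me1 averaged 5.34 and 6.19 and Mdga2 4.08 and 4.07, near the sAg levels. Klra5 averaged 3.58 in 8uvmo-2 and 12.06 in 8uvmo-3, and Sema3d 5.66 and 10.48, so 1 IL13-negative clone resembled the IL13+ clones and the other CD8bm1. Differences from the IL13-negative clones were not tested here.

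Type 2 genes formed a list of 24 measured members, with a median difference of 0.42 against 0.01 over all probe sets. Of these members 8 were called higher (33.3%, against 3.14% of all probe sets) and 1 lower (4.17%, against 4.12%). The cytokine gene Il13, for which the clones are labelled, had dormant log2 levels of 6.46, 6.2 and 6.06 in sAg1 and 10.28, 10.34 and 10.25 in sAg3, against 6.09, 6.36, 6.23 and 6.09 in CD8bm1. Il5, its neighbour on chromosome 11, had 4.44, 4.65 and 4.59 in sAg1 and 10.85, 10.77 and 11.03 in sAg3, against 4.54, 4.46, 4.07 and 4.29 in CD8bm1. Both were high on all 3 sAg3 arrays, whereas the sAg1 arrays overlapped CD8bm1 for Il13 and lay close to it, below the near-background level, for Il5. The mean differences, 2.07 ± 0.18 (SE) for Il13 and 3.38 ± 0.19 (SE) for Il5, therefore describe sAg3: sAg1 alone differed from CD8bm1 by 0.05 ± 0.22 (SE) and 0.22 ± 0.22 (SE), and without sAg1 replicate 1 the sAg1 mean of Il13 fell below that of CD8bm1 and the call was lost. Il4, the third gene of that cluster, had 5.63, 5.79 and 5.54 in sAg1 and 5.65, 5.83 and 5.64 in sAg3, against 5.58, 5.54, 5.52 and 5.74 in CD8bm1 and was near background in all 3 clones.

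Ccr8, a chemokine receptor of type 2 and skin-homing T cells, had 9.01, 8.72 and 8.89 in sAg1 and 7.33, 7.06 and 6.9 in sAg3, against 4.89, 4.70, 5.06 and 4.66 in CD8bm1, at least 4.18-fold higher (adjusted p = 4.01e-22), with sAg1 above sAg3. Hpgds, the enzyme that makes prostaglandin D2, had 10.59, 10.42 and 10.39 in sAg1 and 9.54, 9.41 and 9.37 in sAg3, against 6.67, 6.66, 6.43 and 7.01 in CD8bm1 and differed by 3.26 ± 0.18 (SE). Gata3, the type 2 master regulator, had 10.05, 10.06 and 10.01 in sAg1 and 10.22, 10.27 and 10.27 in sAg3, against 8.91, 8.94, 9.29 and 8.97 in CD8bm1. Its sAg arrays all lay above its CD8bm1 arrays, by 1.12 ± 0.07 (SE). The other members called higher, named after their values were seen, were Rora, Il4ra and Csf2. Rora averaged 11.12 in sAg1 and 6.47 in sAg3, against 6.2 in CD8bm1, so its call came from sAg1. Il10, encoding an inhibitory cytokine, was the 1 member called lower, at 6.64, 6.71 and 6.95 in sAg1 and 7.96, 7.84 and 7.99 in sAg3, against 8.40, 8.49, 8.47 and 8.49 in CD8bm1, a difference of -1.11 ± 0.18 (SE). It differed by -1.70 in sAg1 and by -0.53 in sAg3, which did not pass alone.

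Type 1 genes were more often called higher than lower in the IL13+ clones. Of 22 measured members 8 were called higher (36.4%, against 3.14% of all probe sets) and 2 lower (9.09%, against 4.12%). The median difference of the list was 0.55. Ifng, the interferon gamma gene, had 10.85, 10.62 and 10.70 in sAg1 and 12.05, 12.03 and 11.85 in sAg3, against 9.05, 9.05, 8.86 and 8.88 in CD8bm1, and every sAg array exceeded every CD8bm1 array, a difference of 2.39 ± 0.07 (SE) (adjusted p = 7.4e-25). Irf1, a transcription factor induced by interferon, had 10.19, 10.22 and 10.30 in sAg1 and 9.97, 10.03 and 10.06 in sAg3, against 6.82, 7.31, 6.83 and 7.25 in CD8bm1 and differed by 3.08 ± 0.15 (SE), although a second probe set of Irf1 was not called in the same way. Tbx21, the T-bet gene, had 10.53, 10.82 and 10.79 in sAg1 and 10.01, 10.08 and 9.94 in sAg3, against 10.63, 10.26, 10.27 and 10.19 in CD8bm1, and the groups overlapped. Eomes, the related regulator, had 5.60, 5.27 and 5.41 in sAg1 and 9.31, 9.32 and 9.08 in sAg3, against 5.58, 5.31, 5.16 and 5.11 in CD8bm1, high in sAg3 and near background in the other 2 clones. Il18r1, a chain of the interleukin-18 receptor, showed the opposite split at 11.79, 11.87 and 11.97 in sAg1 and 5.09, 4.74 and 4.92 in sAg3, against 4.65, 4.58, 4.83 and 4.68 in CD8bm1. Ltb, the lymphotoxin beta gene, had 12.67, 12.85 and 12.85 in sAg1 and 9.49, 9.54 and 9.48 in sAg3, against 8.11, 7.95, 8.13 and 7.61 in CD8bm1; both clones were higher, sAg1 more so. The other members called higher, named after their values were seen, were Ifngr1, Ccl3 and Ccl4. Ccl3 and Ccl4 differed by 2.45 and 1.67 in sAg1, against 0.075 and 0.35 in sAg3, so their calls came from sAg1. The 2 members called lower, named after their values were seen, were Il12rb2, a chain of the interleukin-12 receptor, and the chemokine receptor gene Cxcr3. Tnf and Il2 were not called, with differences of 0.49 ± 0.10 (SE) and 0.01 ± 0.18 (SE). Dormant IL13-negative clones 8uvmo-2 and 8uvmo-3 averaged 11.1 and 11.8 for Ifng and 9.9 and 9.7 for Irf1, also above CD8bm1. They averaged 12.5 and 12.4 for Ltb and 11.5 and 12.3 for Il18r1, near sAg1. Eomes was near background in both, at 5.0 and 5.6.

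**Figure D2:**
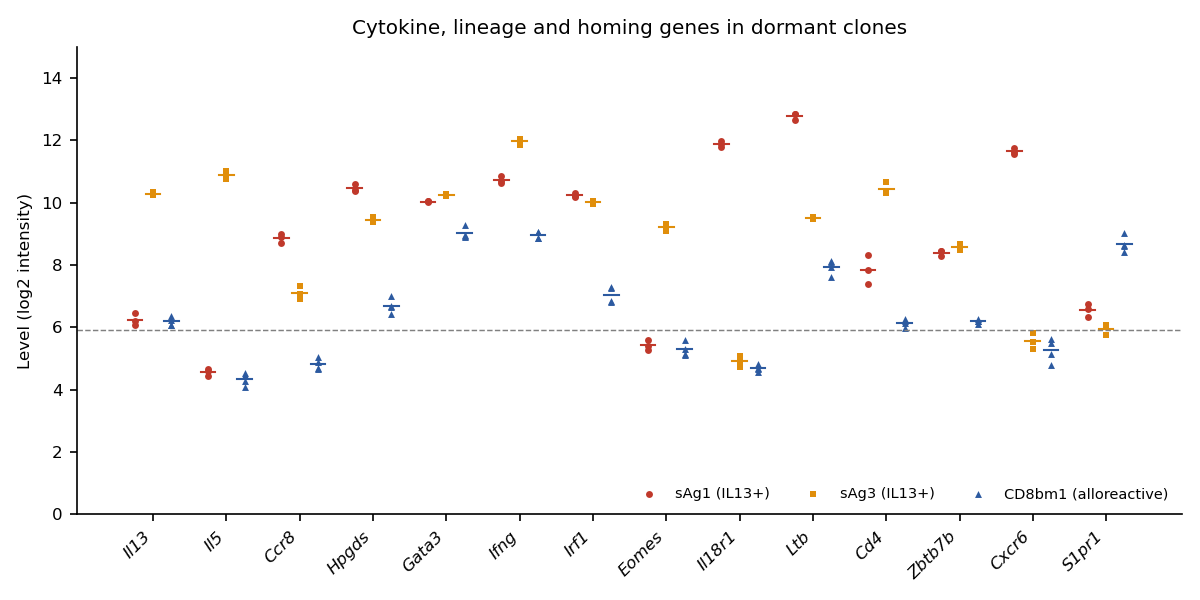
Levels (log2 intensity) of 14 cytokine, lineage and homing genes on every dormant array of sAg1, sAg3 and CD8bm1, with group means as bars and the near-background level of 5.92 as a dashed line. Il13, Il5 and Eomes are high in sAg3, Il18r1 and Cxcr6 in sAg1, while Gata3, Ifng, Irf1 and Zbtb7b are high in both.

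Lineage regulators and signalling genes included a helper cell pair. Cd4, the helper coreceptor gene, had log2 levels of 8.32, 7.83 and 7.39 in sAg1 and 10.30, 10.37 and 10.67 in sAg3, against 6.28, 5.98, 6.19 and 6.15 in CD8bm1. It was above CD8bm1 on all 6 sAg arrays, highest in sAg3, with a difference of 3.00 ± 0.15 (SE) (adjusted p = 1.46e-18). Zbtb7b encodes ThPOK, which directs helper lineage choice and represses CD8 genes, and had 8.29, 8.45 and 8.45 in sAg1 and 8.58, 8.68 and 8.47 in sAg3, against 6.11, 6.21, 6.26 and 6.21 in CD8bm1, a difference of 2.29 ± 0.07 (SE). These were 1 of 6 called members (all higher, of 27 measured) of the receptor signalling list and 1 of 5 called higher, with 1 lower, of 26 memory and residency transcription factors. The shares called higher were 22.2% and 19.2%, against 3.14% of all probe sets. The 1 lower call was 3.85% of its list, against 4.12%. Sh2d1a encodes the adaptor SAP and had 9.04, 9.40 and 9.43 in sAg1 and 6.84, 6.40 and 6.36 in sAg3, against 4.80, 4.83, 5.00 and 5.17 in CD8bm1. Sla, an adaptor that lowers receptor levels, had 10.01, 10.13 and 10.26 in sAg1 and 7.87, 7.74 and 7.71 in sAg3, against 6.64, 6.47, 6.29 and 6.56 in CD8bm1. Ets1 had 9.93, 9.94 and 9.97 in sAg1 and 8.41, 8.33 and 8.26 in sAg3, against 6.40, 6.19, 5.96 and 6.32 in CD8bm1 and Runx1, like it a lymphoid transcription factor, had 9.39, 9.45 and 9.45 in sAg1 and 7.97, 8.06 and 7.89 in sAg3, against 7.36, 6.74, 6.78 and 6.88 in CD8bm1. The other members called in these lists, named after their values were seen, were Prkcq, Ubash3a and Ubash3b in the first and Id3 and Satb1 (higher) and Ikzf3 (lower) in the second. Id3 averaged 9.04 in sAg1 and 5.70 in sAg3, against 5.63 in CD8bm1, so its call came from sAg1. In Sh2d1a, Sla, Ets1 and Runx1, sAg1 stood above sAg3, and sAg3 above CD8bm1. Dormant IL13-negative clones 8uvmo-2 and 8uvmo-3 were also above CD8bm1 for Cd4 (means of 7.1 and 6.5) and Zbtb7b (8.4 and 7.0). They averaged 10.2 and 10.7 for Sh2d1a, 10.4 and 10.4 for Ets1 and 9.2 and 9.5 for Runx1, near or above sAg1. For Sla they averaged 5.6 and 7.0, below and above CD8bm1.

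Of 10 T cell receptor segment probe sets 3 were called, against 7.26% of all probe sets. Trbv1, a beta chain variable segment, differed by -5.50 ± 0.11 (SE), with mean levels of 7.51 ± 0.07 in sAg1 (SD, n = 3) and 7.72 ± 0.23 in sAg3 (SD, n = 3), against 13.11 ± 0.11 in CD8bm1 (SD, n = 4). The other 2, both higher and named after their values were seen, were Trgv1 and Trav7n-5; the second lay below 5.92 in all 3 clones, at mean levels of 4.62 in sAg1 and 5.70 in sAg3, against 3.72 in CD8bm1. Of 16 immunoglobulin probe sets 1 was called, against 7.26% of all probe sets. It was a probe set of Ighm, higher at mean levels of 7.48 in sAg1 and 6.27 in sAg3, against 5.37 in CD8bm1. The other Ighm probe sets differed by 0.136 and 0.035 and were not called.

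Of 26 measured genes of cytotoxic granules, death ligands and protease inhibitors 4 were called higher (15.4%, against 3.14% of all probe sets) and none lower. Gzmb, the granzyme B gene, had 12.08, 12.41 and 12.24 in sAg1 and 13.88, 13.94 and 13.94 in sAg3, against 13.40, 13.59, 13.29 and 13.61 in CD8bm1; sAg1 lay below CD8bm1 and sAg3 above it, and the mean difference of -0.39 ± 0.07 (SE) was not called. Prf1, the perforin gene, split the same way at 11.41, 11.71 and 11.59 in sAg1 and 13.32, 13.40 and 13.44 in sAg3, against 12.91, 12.38, 12.39 and 11.74 in CD8bm1. Gzmc had 7.52, 7.48 and 7.57 in sAg1 and 11.38, 11.18 and 11.37 in sAg3, against 6.94, 6.94, 7.44 and 7.09 in CD8bm1, high in sAg3, with the reservation that granzymes c to g are close copies. Serpinb9, an inhibitor of granzyme B, had 6.99, 6.72 and 6.67 in sAg1 and 8.71, 8.72 and 8.84 in sAg3, against 5.43, 5.90, 4.94 and 6.32 in CD8bm1, and its relative Serpinb6b had 8.21, 8.41 and 8.08 in sAg1 and 8.85, 8.96 and 9.18 in sAg3, against 6.11, 6.87, 6.05 and 6.60 in CD8bm1; both were higher on every sAg array, by 2.13 ± 0.19 (SE) and 2.21 ± 0.21 (SE). Lamp1, named after its values were seen, was the remaining call.

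Natural killer receptor genes moved both ways, with 7 of 23 called higher (30.4%) and 3 lower (13.0%). Over all probe sets 3.14% were called higher and 4.12% lower. The list also held Lilrb4a. Klrg1, an inhibitory receptor of differentiated effector cells, had 5.94, 5.71 and 5.82 in sAg1 and 9.95, 10.30 and 10.18 in sAg3, against 12.39, 12.11, 11.90 and 12.15 in CD8bm1. It was near background in sAg1 and lower by a smaller margin in sAg3 (-1.99 ± 0.24 (SE)), for a mean difference of -4.15 ± 0.20 (SE). The other 6 members called higher, named after their values were seen, were the lectin-like receptor genes Klrc1, Klrc2, Klrc3, Klrd1, Klre1 and Klrk1. Klrc2 and Klrc3 differed by 1.94 and 1.91 in sAg1, against 0.33 and 0.40 in sAg3, so their calls came from sAg1. Klrc3 averaged 5.05 in sAg3 and 4.64 in CD8bm1, both below 5.92. In sAg3 Klrc1 and Klre1 differed by 0.62 and 0.90, below the minimum. After activation Lilrb4a was the only member of the list called higher. The third lower call, named after its values were seen, was Klra17, which lay below 5.92 in all 3 clones, at mean levels of 3.34 in sAg1 and 3.35 in sAg3, against 5.02 in CD8bm1. Among 30 inhibitory and costimulatory receptor genes 2 were called higher, Tigit and Tnfsf11 (6.67%, against 3.14% of all probe sets). Tnfrsf9 was called lower (3.33%, against 4.12%). Tnfrsf9 encodes the costimulatory receptor 4-1BB and had 6.91, 6.95 and 7.05 in sAg1 and 12.77, 12.85 and 12.81 in sAg3, against 13.42, 13.36, 13.42 and 12.90 in CD8bm1; its difference of -3.38 ± 0.25 (SE) came from sAg1, since sAg3 alone differed from CD8bm1 by -0.47 ± 0.30 (SE). Tigit, an inhibitory receptor, had 10.89, 11.23 and 11.16 in sAg1 and 9.75, 9.94 and 9.85 in sAg3, against 9.57, 9.41, 9.33 and 9.30 in CD8bm1.

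Homing receptors gave 2 calls in each direction among 22 measured (9.09% each way). Over all probe sets 3.14% were called higher and 4.12% lower. S1pr1, the receptor by which T cells leave tissue for the circulation, had 6.75, 6.32 and 6.59 in sAg1 and 5.75, 6.07 and 6.02 in sAg3, against 9.02, 8.41, 8.62 and 8.65 in CD8bm1. All 6 sAg arrays were lower, by -2.42 ± 0.15 (SE) (adjusted p = 1.36e-15). Cysltr1, a leukotriene receptor, was lower too, at 9.51, 9.59 and 9.70 in sAg1 and 9.46, 9.55 and 9.59 in sAg3, against 10.20, 10.93, 11.11 and 10.91 in CD8bm1. Cxcr6, a receptor of tissue-resident T cells, had 11.58, 11.76 and 11.64 in sAg1 and 5.52, 5.32 and 5.81 in sAg3, against 5.14, 5.51, 5.63 and 4.78 in CD8bm1, high in sAg1, while the sAg3 arrays overlapped CD8bm1. The second member called higher, named after its values were seen, was Gpr15, at mean levels of 5.67 in sAg1 and 7.95 in sAg3, against 5.63 in CD8bm1, so its call came from sAg3. Itga1, the alpha chain of the collagen-binding integrin VLA-1, had 12.33, 12.13 and 12.27 in sAg1 and 12.53, 12.45 and 12.51 in sAg3, against 12.09, 12.03, 11.70 and 11.88 in CD8bm1 and did not reach the minimum, with 0.45 ± 0.12 (SE); it averaged 5.67 in 8uvmo-2 and 5.15 in 8uvmo-3. Of 28 integrin and adhesion genes 4 were called higher (14.3%, against 3.14% of all probe sets) and none lower. Pecam1, an adhesion and inhibitory molecule, had 6.85, 6.58 and 6.14 in sAg1 and 11.77, 11.76 and 11.83 in sAg3, against 5.78, 5.63, 5.68 and 5.54 in CD8bm1, high in sAg3, whereas Cd44, the hyaluronan receptor, had 9.57, 9.57 and 9.81 in sAg1 and 5.71, 6.2 and 6.04 in sAg3, against 5.85, 5.91, 5.87 and 5.71 in CD8bm1 and Cd2, an adhesion receptor of T cells, had 8.91, 8.94 and 8.88 in sAg1 and 6.11, 5.68 and 5.60 in sAg3, against 5.44, 5.71, 5.85 and 5.35 in CD8bm1, both high in sAg1. Cd226, named after its values were seen, was the fourth; it averaged 11.20 in sAg1 and 7.97 in sAg3, against 7.90 in CD8bm1, so its call came from sAg1.

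Cytokine receptor genes gave 5 calls of 27, all higher (18.5%, against 3.14% of all probe sets). Il7r, the survival cytokine receptor chain, had 11.82, 12 and 11.96 in sAg1 and 11.77, 11.71 and 11.89 in sAg3, against 10.72, 10.53, 10.76 and 10.54 in CD8bm1, a difference of 1.22 ± 0.12 (SE). Tgfbr3, a coreceptor for TGF-beta, had 10.89, 10.92 and 10.90 in sAg1 and 10.93, 10.90 and 10.82 in sAg3, against 9.42, 9.27, 9.31 and 9.31 in CD8bm1, a difference of 1.57 ± 0.06 (SE); the sAg1 and sAg3 arrays overlapped in each gene. Il10rb, a chain shared by receptors of the interleukin-10 family, had 9.76, 9.96 and 9.82 in sAg1 and 5.69, 5.27 and 5.81 in sAg3, against 4.92, 5.68, 5.09 and 5.38 in CD8bm1 and was high in sAg1. Socs1 and Il31ra, named after their values were seen, were the other 2. Among 30 genes induced early by receptor signalling 4 were higher (13.3%, against 3.14% of all probe sets) and 1 lower (3.33%, against 4.12%). Crtam, an adhesion receptor of activated CD8 cells, had 8.60, 8.91 and 8.75 in sAg1 and 7.87, 8.14 and 8.00 in sAg3, against 6.25, 6.37, 6.16 and 6.37 in CD8bm1, Spry2, an inhibitor of MAP kinase signalling, had 9.74, 9.77 and 9.77 in sAg1 and 9.74, 9.76 and 9.56 in sAg3, against 7.96, 7.61, 7.83 and 7.35 in CD8bm1, and Rgs2, a G protein regulator and the lower one, had 6.67, 6.74 and 6.73 in sAg1 and 5.69, 5.96 and 5.67 in sAg3, against 7.71, 7.94, 8.84 and 7.98 in CD8bm1. Dusp1 and Nfkbia, named after their values were seen, were the other 2 called higher.

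Cell cycle genes were lower in the dormant IL13+ clones. Of 39 measured members 30 were called lower (against 4.12% of all probe sets) and none higher, with a median difference of -1.70, -2.11 in sAg1 and -1.50 in sAg3. The median level of the list was 7.21, 7.29 and 7.82 on the sAg1 arrays and 9.07, 8.15 and 7.97 on the sAg3 arrays, against 9.40, 10.32, 9.64 and 10.82 on the CD8bm1 arrays. No sAg array reached the lowest CD8bm1 array, yet the arrays within a group differed by more than 1 in sAg3 and CD8bm1. Bub1, a kinase of the mitotic checkpoint, had 4.82, 4.92 and 6.47 in sAg1 and 8.08, 6.64 and 6.83 in sAg3, against 8.84, 10.32, 9.75 and 10.82 in CD8bm1, a difference of -3.64 ± 0.50 (SE) (adjusted p = 1.82e-07). Ccna2, the cyclin of S phase and G2, had 6.23, 6.25 and 7.46 in sAg1 and 9.81, 8.50 and 8.75 in sAg3, against 10.56, 11.60, 10.92 and 12.03 in CD8bm1. Ccnb2, a mitotic cyclin, had 7.05, 7.03 and 8.39 in sAg1 and 9.64, 8.70 and 8.44 in sAg3, against 10.43, 11.49, 11.01 and 12.15 in CD8bm1. Their differences were -3.44 ± 0.45 (SE) and -3.06 ± 0.38 (SE), and in all 3 genes sAg1 lay below sAg3. CD8bm1 replicates 2 and 4 held the highest levels; without both, 22 of the 39 were called lower. Dormant arrays of the IL13-negative clone 8uvmo-2 had 10.18, 7.78, 10.39 and 6.74 for Bub1, a spread about as wide as the difference above. For Ccna2 they had 12.10, 10.06, 12.17 and 9.21. Those of 8uvmo-3 lay closer together, at 8.40, 7.72, 7.48 and 7.52 for Bub1. The part of such spread between arrays in the clone difference was not tested. In bulk RNA, fewer cycling cells and less transcript per cycling cell cannot be told apart.

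The promoters of Ccnb2 and Bub1 are printed because CCAAT boxes, which bind NF-Y, are a known feature of mitotic genes, and that of Car9 because it stands for the hypoxia genes below. Each is the 250 bases before the RefSeq start in GRCm38.p6, read along the gene, with matches in capitals: CCAAT or, on the other strand, ATTGG in the first 2, and ACGTG or CACGT, the core of the hypoxia response element, in Car9.
Ccnb2, chr9:70421555-70421804, minus strand: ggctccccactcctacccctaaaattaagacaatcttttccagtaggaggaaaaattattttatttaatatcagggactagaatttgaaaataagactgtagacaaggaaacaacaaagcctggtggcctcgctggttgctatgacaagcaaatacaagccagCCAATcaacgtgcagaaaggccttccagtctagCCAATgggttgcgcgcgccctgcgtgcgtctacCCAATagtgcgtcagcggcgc
Bub1, chr2:127831860-127832109, minus strand: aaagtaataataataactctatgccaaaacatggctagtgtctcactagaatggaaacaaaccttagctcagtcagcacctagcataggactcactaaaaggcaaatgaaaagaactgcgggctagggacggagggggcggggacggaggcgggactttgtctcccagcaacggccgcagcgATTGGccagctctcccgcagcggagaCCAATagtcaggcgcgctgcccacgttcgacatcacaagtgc
Car9, chr4:43506776-43507025, plus strand: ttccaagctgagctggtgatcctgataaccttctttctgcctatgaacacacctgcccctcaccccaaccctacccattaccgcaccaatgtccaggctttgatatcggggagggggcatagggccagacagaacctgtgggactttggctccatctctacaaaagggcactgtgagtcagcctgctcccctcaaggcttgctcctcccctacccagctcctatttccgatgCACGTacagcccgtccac
Ccnb2 held 3 CCAAT matches, beginning at positions -87, -54 and -21 from the start, and Bub1 held 2, at -68 and -42. The promoter table held 32 windows for 30 of the 39 measured cell cycle genes, 23 of them called lower, and 32 windows for 23 of the 24 measured glycolysis and hypoxia genes. CCAAT stood in 24 of the 32 cell cycle windows (75.0%), against 33.8% of all 32851 promoters; among genes called lower it was in 19 of 24 windows, and among the rest in 5 of 8. Car9 held 1 ACGTG match, at -18. ACGTG stood in 18 of the 32 glycolysis and hypoxia windows, against 16.6% of all, and in 6 of the 10 windows of genes called lower and 12 of 22 of the others. The motifs describe these windows only, and a gene with several starts has several windows.

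Glycolysis and hypoxia genes were lower mainly in sAg1. Of 24 measured members 7 were called lower (29.2%, against 4.12% of all probe sets) and 1 higher (4.17%, against 3.14%). The higher one, named after its values were seen, was Hif1a. The median difference was -0.79, -1.33 in sAg1 and -0.12 in sAg3, and 19 members passed as lower in sAg1 alone (5.57% of all probe sets did) and 4 in sAg3 alone (4.21%). Median list levels were 10.09, 10.26 and 10.31 on the sAg1 arrays and 11.61, 11.53 and 11.61 on the sAg3 arrays, against 11.97, 12.27, 12.37 and 11.60 on the CD8bm1 arrays, so sAg3 overlapped CD8bm1. Genes with wide margins in both clones were Car9 and Aldoc. Car9, carbonic anhydrase IX, a classical target of hypoxia-inducible factor, had 5.94, 6.07 and 6.07 in sAg1 and 7.10, 7.68 and 7.33 in sAg3, against 12.63, 12.64, 12.72 and 12.26 in CD8bm1, a difference of -5.86 ± 0.15 (SE) (adjusted p = 2.14e-26). Aldoc, the brain-type isoform of the glycolytic enzyme aldolase, had 5.83, 5.85 and 5.43 in sAg1 and 6.01, 6.15 and 5.59 in sAg3, against 12.51, 12.44, 12.71 and 11.65 in CD8bm1, at least 84.7-fold lower. Ankrd37, another hypoxia target, had 8.48, 8.60 and 8.51 in sAg1 and 10.82, 10.67 and 10.74 in sAg3, against 11.62, 11.23, 11.84 and 10.50 in CD8bm1 and was low mainly in sAg1. Dormant IL13-negative clones 8uvmo-2 and 8uvmo-3 averaged 6.2 and 5.8 for Car9, near sAg1. For Aldoc they averaged 9.0 and 11.1, between the IL13+ clones and CD8bm1, and for Ankrd37 10.2 and 9.2.

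**Figure D3:**
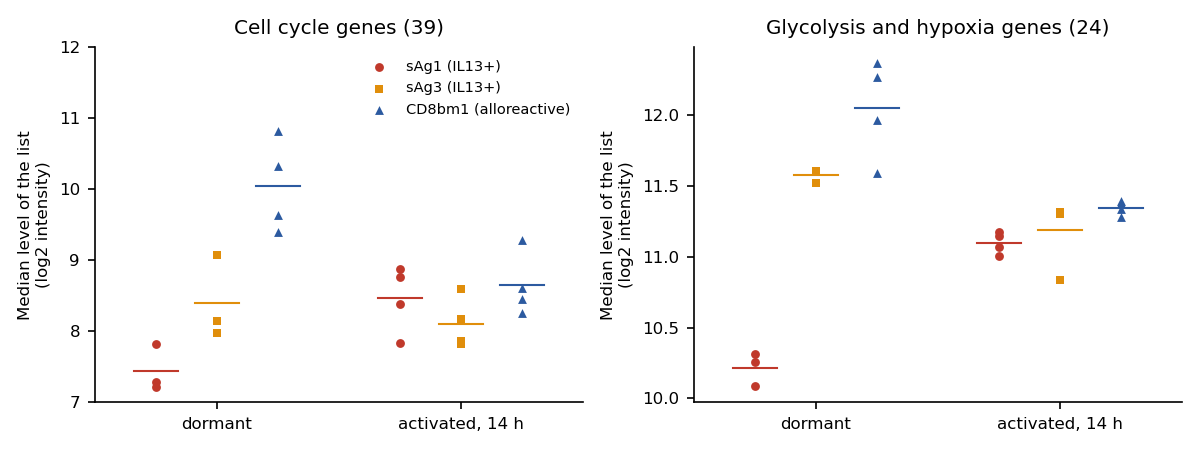
Median level (log2 intensity) of the 39 cell cycle genes and the 24 glycolysis and hypoxia genes on each array of sAg1, sAg3 and CD8bm1, dormant and after 14 h on anti-CD3, with group means as bars. The dormant cell cycle medians of both IL13+ clones lie below those of CD8bm1, and the activated ones overlap.

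Of 21 genes of protein folding in the endoplasmic reticulum 2 were higher (9.52%, against 3.14% of all probe sets), Dnajb9 (above) and Dnajc3, and 1 lower (4.76%, against 4.12%), Sdf2l1. Dnajc3, an inhibitor of the kinase PERK, had 11.90, 11.96 and 11.96 in sAg1 and 11.74, 11.69 and 11.71 in sAg3, against 10.62, 10.44, 10.29 and 10.53 in CD8bm1, and Sdf2l1, part of a chaperone complex, had 9.22, 9.44 and 9.39 in sAg1 and 9.95, 9.93 and 9.59 in sAg3, against 10.85, 11.28, 10.85 and 11.28 in CD8bm1. The list's median was -0.07. Of 25 amino acid and one-carbon genes driven by ATF4, 3 were lower (12%), namely Psat1, Shmt2 and Trib3, with differences of -1.45 ± 0.20 (SE), -1.14 ± 0.18 (SE) and -1.14 ± 0.16 (SE). They differed by -2.15, -1.53 and -1.58 in sAg1. In sAg3 they differed by -0.75, -0.76 and -0.69, and none passed alone. The Shmt2 arrays of the groups overlapped. The median of the list was -0.63 in sAg1 and -0.05 in sAg3. Psat1 makes serine, Shmt2 feeds the mitochondrial folate pathway and Trib3 is a pseudokinase induced by amino acid shortage; Shmt2 reached -0.90 and was not called without CD8bm1 replicate 4. Interferon-stimulated genes gave 4 calls higher (14.81%) and 3 lower (11.1%) among 27 measured. Zbp1, a sensor of Z-form nucleic acid, had 9.25, 9.23 and 9.33 in sAg1 and 8.62, 8.59 and 8.51 in sAg3, against 7.04, 6.68, 6.51 and 7.17 in CD8bm1, Xaf1, a promoter of cell death, had 8.22, 8.24 and 8.36 in sAg1 and 7.60, 7.40 and 7.50 in sAg3, against 6.25, 5.83, 5.48 and 6.15 in CD8bm1, and Gbp3, a guanylate-binding protein and one of the lower, had 7.21, 7.34 and 7.67 in sAg1 and 8.46, 8.09 and 8.10 in sAg3, against 9.10, 9.22, 8.97 and 9.85 in CD8bm1. The other calls, named after their values were seen, were Mx1 and Ddx58 (higher) and Ifit1 and Isg20 (lower).

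None of 10 B cell markers and none of 15 stromal and epithelial markers was called. The share called higher was 4.76% among macrophage and dendritic cell markers, against 3.14% of all probe sets. Among mast cell and basophil markers it was 18.2%. Of 21 macrophage and dendritic cell markers 1 was called, Cybb, a subunit of the phagocyte oxidase, at 6.74, 6.41 and 7.70 in sAg1 and 4.81, 4.85 and 5.14 in sAg3, against 4.96, 5.00, 4.82 and 4.84 in CD8bm1; it was not called without sAg1 replicate 3 or without sAg3 replicate 3. The lysozyme gene Lyz2 averaged 9.26 in sAg1 and 5.28 in sAg3, against 5.36 in CD8bm1, and was left out because sAg3 lay below CD8bm1. Clec7a, a lectin receptor of phagocytes, averaged 6.11 in sAg1 and 4.46 in sAg3, against 4.35 in CD8bm1, and Itgam 6.46 in sAg1 and 5.24 in sAg3, against 5.72 in CD8bm1; neither was called, and both were highest in sAg1, as were Lyz2 and Cybb. The defining markers Csf1r, Adgre1, C1qa and Mrc1 averaged between 4.59 and 6.01 in all 3 clones. Cd68 and Itgax, which T cells can also express, averaged 9.14 and 7.50 in sAg1 and 9.29 and 11.20 in sAg3, against 10.17 and 10.59 in CD8bm1. Summed log2 levels of the list ran from 126.9 to 132.8 in sAg1 and 122.6 to 124.1 in sAg3, against 120.8 to 125.9 in CD8bm1. Of 11 mast cell and basophil markers 2 were called, Mcpt8, a basophil protease gene, at 5.93, 6.08 and 5.72 in sAg1 and 10.65, 10.74 and 10.64 in sAg3, against 5.43, 5.19, 5.48 and 5.30 in CD8bm1, and Cpa3, a mast cell carboxypeptidase gene, at 7.65, 7.91 and 7.83 in sAg1 and 7.47, 6.98 and 7.20 in sAg3, against 4.81, 4.65, 5.05 and 5.05 in CD8bm1. Mcpt8 averaged 10.12 in the IL13-negative clone 8uvmo-2 and 6.92 in 8uvmo-3, and Cpa3 10.58 and 4.92. The lineage markers Fcer1a, Ms4a2 and Kit averaged between 3.83 and 5.71 in all 3 clones. Summed log2 levels of that list ran from 60.54 to 61.23 in sAg1 and 64.73 to 65.33 in sAg3, against 56.12 to 57.55 in CD8bm1.

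After activation the same contrast gave 858 calls (3.67%), 472 higher (2.02%) and 386 lower (1.65%). In total 624 probe sets were called in the same direction in both states, 36.7% of the dormant and 72.7% of the activated calls, and none in opposite directions. The difference between the dormant and the activated contrast was itself called at 817 probe sets (3.49%), including 610 of the 1699 dormant calls. Over all 817 the dormant difference was the larger in 682 and the activated one in 135. Activated arrays had higher medians, 7.01 to 7.09 against 6.58 to 6.68 in the dormant arrays, and a higher median of the olfactory receptor probe sets, 4.67 against 4.13; their part in the count was not tested.

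Of the cell cycle genes, none was called in the activated contrast, where the median was -0.27. Over all probe sets 3.67% were called in that contrast, and 1.65% were called lower. For 25 of the 39 cell cycle genes the difference between states was called, against 3.49% of all probe sets. Bub1 differed by -1.10 ± 0.48 (SE) after activation (adjusted p = 0.0837), a change between states of -2.54 ± 0.69 (SE) (adjusted p = 0.00593). Ccnb2 differed by -0.45 ± 0.36 (SE) (adjusted p = 0.432). Activated medians of the list were 8.88, 8.76, 8.39 and 7.83 in sAg1 and 8.59, 8.17, 7.86 and 7.82 in sAg3, against 8.46, 8.26, 9.28 and 8.61 in CD8bm1, so the groups overlapped.

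Type 2 cytokines separated further. Activated Il13 averaged 9.51 in sAg1 and 12.78 in sAg3, against 6.59 in CD8bm1. The activated difference was 4.55 ± 0.17 (SE) and the difference between states -2.48 ± 0.25 (SE) (dormant minus activated, adjusted p = 3.31e-09). For Il5 the activated means were 7.53 in sAg1 and 13.19 in sAg3, against 5.22 in CD8bm1, a difference of 5.14 ± 0.18 (SE). Here sAg1, which lacked a dormant difference in both genes, stood above CD8bm1. Ifng moved the other way: activated means were 14.09 in sAg1 and 13.60 in sAg3, against 13.59 in CD8bm1, near the top of the scale, where array maxima of the compared dormant arrays were 14.53 to 14.76. Its activated difference was 0.25 ± 0.07 (SE) and the difference between states 2.14 ± 0.10 (SE) (adjusted p = 2.25e-17). S1pr1 differed by -0.41 ± 0.14 (SE) after activation and was no longer called. Klra5, B4galnt2, Gmfg and Nrn1 kept differences of -8.00 ± 0.18 (SE), 5.59 ± 0.09 (SE), 4.77 ± 0.06 (SE) and -6.56 ± 0.13 (SE) after activation. Aldoc differed by -2.95 ± 0.27 (SE) and Lilr4b by 1.46 ± 0.17 (SE), and for both the difference between states was called, with the dormant difference the larger.

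**Figure D4:**
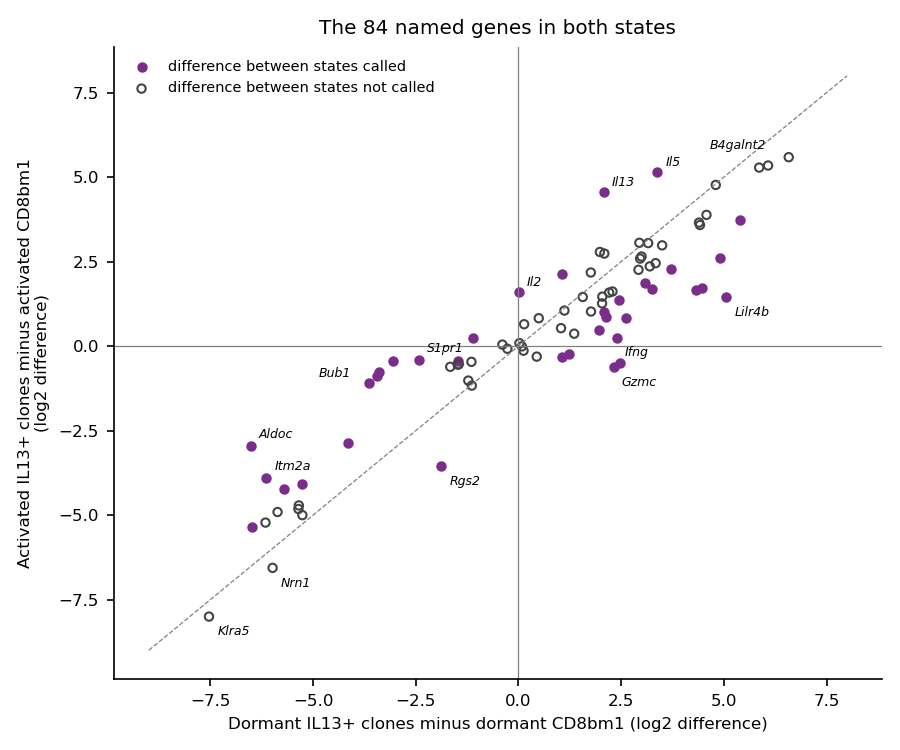
Log2 difference between the IL13+ clones and CD8bm1 for the 84 named genes, dormant (horizontal) against activated (vertical), with filled points where the difference between states was called and a dashed line of equality. Il13 and Il5 lie above the line, while Ifng, Lilr4b, Bub1 and Aldoc lie closer to 0 after activation; the 2 axes share no array.

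Chromosome 1 stood apart from the other chromosomes. Among 610 probe sets there with a mean level of at least 7, the median difference was -0.29, -0.22 in sAg1 and -0.35 in sAg3, and 73.4% lay below 0, against a median of 0.01 and 48.8% below 0 for 9929 probe sets on the other chromosomes. In 4 stretches by gene order along the chromosome the medians were -0.33, -0.22, -0.27 and -0.33. The activated arrays gave -0.24. The dormant IL13-negative clones against the same CD8bm1 arrays gave -0.08 over the chromosome, and -0.05, -0.04, -0.05 and -0.26 in the same 4 stretches. Of the named genes Il10 and Rgs2, both lower, and Il18r1, higher, lie on chromosome 1, with mean differences of -1.11, -1.87 and 3.71. In sAg3 alone Il10 differed by -0.53 and Il18r1 by 0.23, and neither passed. On chromosome 8 the median was 0.28 in sAg3 and 0.04 in sAg1.

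**Figure D5:**
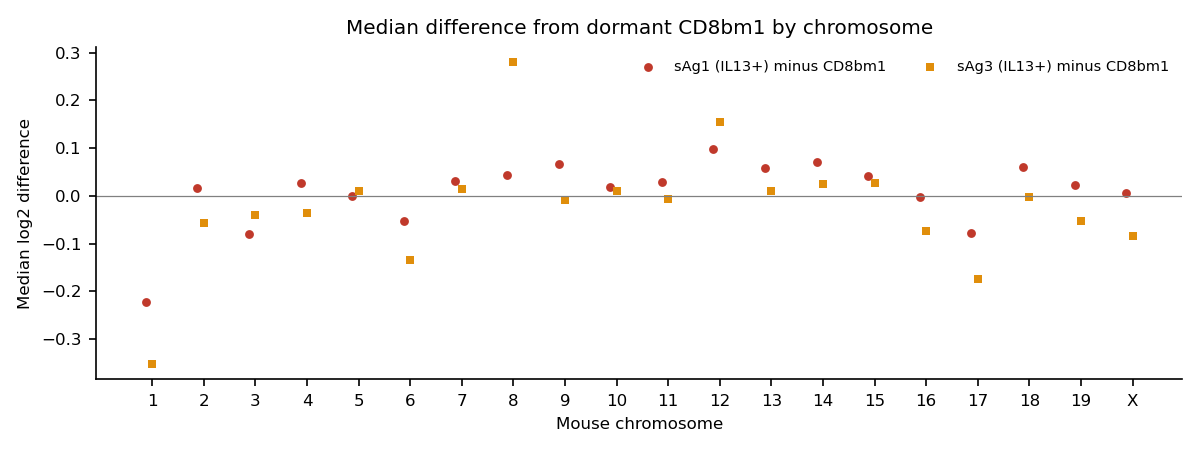
Median log2 difference of sAg1 and of sAg3 from dormant CD8bm1 on each mouse chromosome, over probe sets with a mean level of at least 7. Both IL13+ clones lie below 0 on chromosome 1, at -0.22 and -0.35, and sAg3 lies at 0.28 on chromosome 8.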

How the data were processed

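Messenger RNA was measured in 38 RNA samples of mouse CD8 T cell clones on Affymetrix arrays. Per the labels' protocols, RNA was extracted with QIAGEN RNeasy and 100 ng entered the WT Plus labelling. The authors deposited 1 log2 value per probe set and array. Per the submitters' processing notes Partek and RMA were used, with no version or order stated, and the genome build is not given in the sources used here. The values ran from 1.81 to 14.76. Precision is limited by how many arrays a group has and by how few clones were compared. Errors and p-values of the main fit rest on the spread between arrays within groups. They leave out the spread between clones, which more arrays would not supply.

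Of 35556 rows the platform annotation, which can be old, names a gene for 23410, which were tested: 21789 with 1 symbol and 1621 with several. Names were updated through GRCm38.p6 gene numbers for 21698. Promoters are from RefSeq, GRCm38.p6. Each probe set was fitted with limma 3.58.1 (R 4.3.3) over all 38 arrays with 1 mean for each of 10 groups and a mean trend in the variances, p-values adjusted by Benjamini-Hochberg over the 23410, two-sided. Errors of differences are SE of the contrast. A gene with several probe sets is represented by that of highest overall mean.

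Groups come from the labels. Whether replicate arrays stem from separate cultures is not stated, so the spread behind the p-values may be technical. The replicate numbers come from the array titles, and the main fit did not pair arrays by them. Deviations of same-numbered sAg and CD8bm1 arrays from their group means correlated at -0.24 to 0.20. With so few arrays per group these values cannot settle whether the numbers pair arrays.

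The comparison, the gene lists and the key genes were chosen with earlier results of these data known. The 84 named genes are 18 key genes, the 12 per direction in which the nearer sAg clone lay farthest from CD8bm1 (predicted loci and receptor segments left out) and up to 3 called members of each list with the largest difference. Alternatives covered the fold minimum, limma's treat test, dim probe sets, array centring, quantile normalization, the variance trend, array weights, the arrays fitted, 1 probe set per symbol, the replicate block, single arrays or clones left out, clone means and the condition on clone sides. The procedure was tested on simulated data.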

Additional observations from a re-analysis of the deposited data

Results flagged for a closer look

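For 36 named genes the difference between the IL13+ clones and CD8bm1 itself differed between the dormant and the activated state. Most named genes were chosen for a large dormant difference, and this choice favours genes in which the dormant difference is the larger. Over all probe sets 817 (3.49%) were called for the difference between states. The dormant difference was the larger in 682 of them and the activated one in 135. The values below are the dormant minus the activated log2 difference. Among genes higher in the dormant IL13+ clones, the dormant difference was the larger in Ifng (2.14), Ms4a4b (1.67), Lilr4b (3.60), Acpp (2.30), Tmem273 (2.68), Lilrb4a (2.73), Hpgds (1.57), Il18r1 (1.43), Irf1 (1.20), Gzmc (2.94), Serpinb9 (1.27), Tigit (1.39), Sla (2.97), Il10rb (1.10), Il7r (1.44), Zbp1 (1.06), Xaf1 (1.50) and Cpa3 (1.78). It was the smaller in Il13 (-2.48), Il5 (-1.76) and Tnfsf11 (-1.08). The sign turned after activation in Gzmc, Tigit, Sla and Il7r, with activated differences of -0.63, -0.32, -0.51 and -0.22, none of them called. Among genes lower in the dormant IL13+ clones, the dormant difference was the larger in size in Il10 (-1.34), S1pr1 (-2.01), Me1 (-1.13), Aldoc (-3.57), Itm2a (-2.23), Mdga2 (-1.48), Hadh (-1.21), Klrg1 (-1.29), Tnfrsf9 (-2.62), Bub1 (-2.54), Ccna2 (-2.55), Ccnb2 (-2.62) and Gbp3 (-1.04). It was the smaller in size in Rgs2 (1.68). The sign of Il10 turned as well, with an activated difference of 0.23 that was not called. Il2 (-1.58), near background in all 3 dormant clones, was not called in the dormant state. The activated arrays had higher medians than the dormant ones, and the part of this in these values was not tested.

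In dormant CD8bm1, 1 of the 4 arrays lay far from the other 3 at 7 named genes, which chance gives in about 1 of 20 groups: Gata3 at 9.29, Tmem273 at 5.24, Zfp280d at 4.47, Klra5 at 11.34, H2-M10.1 at 9.31, Hadh at 11.36 and Tnfrsf9 at 12.90. The direction of each comparison with the IL13+ clones held without any 1 of these arrays.

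Of 12146 rows with no gene name in the annotation, which no comparison above used, 649 (5.34%) passed the same rule, 544 higher and 105 lower in the dormant IL13+ clones.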

How the results depend on the processing

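With no minimum on the log2 difference 8437 probe sets were called (4178 higher, 4259 lower), 16 glycolysis and hypoxia genes lower, 9893 for sAg1, 8084 for sAg3, 8166 for sAg1 minus sAg3, 5954 after activation and 5521 for the difference between states. Under limma's treat test of differences beyond 1 these were 925 (436 higher, 489 lower), 2 glycolysis and hypoxia genes and 14 cell cycle genes lower, 1437, 860, 928, 492 and 107. With clone means as replicates 56 were called (5 higher, 51 lower), with 0 cell cycle and 0 glycolysis and hypoxia genes; of 84 named genes, 68 lost their call, while Ms4a4b, Gmfg, Tmem273, Me1, Adgrg7, Mdga2 and H2-M10.1 were called and 9 were called in neither. For sAg1 alone 1159 were higher and 19 glycolysis and hypoxia genes lower; for sAg3 alone these lower genes were 4. Centring gave 1689 calls, quantile normalization 1550, array weights 1726, the dim filter 1249 and no condition on the clones 1821. The replicate block gave 1698 (724 higher, 974 lower) and, of the named genes, lost Cybb alone. Leaving out 1 array at a time gave 1625 to 1798 calls, 723 to 787 higher, 902 to 1017 lower, 25 to 33 cell cycle and 5 to 8 glycolysis and hypoxia genes. Without CD8bm1 replicates 2 and 4, chosen after seeing the data, 1587 were called. Array weights ended the calls of Il13 (the sAg1 mean fell below CD8bm1), Tnfsf11 and Cybb, and quantile normalization those of Il10 and Cybb. Signs turned only in uncalled genes near 0 or split between the clones: Il2 (0.01) was -0.0014 after quantile normalization, -0.0199 with array weights, -0.0244 with the replicate block, -0.0258 for sAg1 alone, -0.025 without CD8bm1 replicates 2 and 4 and -0.0367 to 0.0408 with 1 array left out; Tbx21 (0.02) was -0.33 for sAg3 alone, -0.0883 without the 2 CD8bm1 arrays and -0.025 to 0.122; Prf1 (0.12) was -0.79 for sAg1 alone, -0.172 without them and -0.0817 to 0.308. Cd8a was -0.35 for sAg1 alone and Gzmb 0.45 for sAg3 alone. The causes were not tested. Probe sets below 5.92 limit folds to lower bounds.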
